A study of Mus musculus with 150 samples.

Results

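The livers of 30 female mice, 15 with the highest and 15 with the lowest Cdkn1a transcript level among 58 livers of mice aged 460 to 630 days, were compared across 13630 other genes. The livers come from the BXD family, a set of inbred strains derived from crosses of C57BL/6J and DBA/2J that also includes these parents and F1 hybrids, kept for life on a standard chow (CD) or a high-fat diet (HF). Each library is poly(A)+ RNA from the perfused, snap-frozen liver of 1 animal, and 30 of the 150 deposited library columns enter this comparison. The groups were chosen by the measured level of Cdkn1a itself, ranked on its transcript with the highest mean level, so Cdkn1a is described here and not tested. The mice carried no engineered allele, and their Cdkn1a level was observed, not set by an experimenter. The high group held 6 CD and 9 HF livers of 12 strains, and the low group 9 CD and 6 HF livers of 11 strains. The high livers were of BXD9, BXD29, BXD32, BXD60, BXD62, BXD65, BXD68, BXD69, BXD90, BXD95, BXD101 and the F1 hybrid B6D2F1. The low livers were of C57BL/6J, the F1 hybrid D2B6F1, BXD39, BXD48, BXD61, BXD62, BXD73b, BXD77, BXD91, BXD99 and BXD100. In the high group 2 strains (BXD9 and BXD29) gave 2 or more livers, and in the low group 4 (D2B6F1, BXD48, BXD73b and BXD100). Livers of 1 strain entered the comparison as separate. By label, BXD62 was the 1 strain with a liver in both groups. The values of its low liver, of the low BXD73b CD liver and of the high BXD65 HF liver also stand in left-out columns. Those columns are labelled with another strain and age, and which labels are right was not tested. The remaining 28 livers of the age window, called the middle livers, are in neither group, but the same ranking of Cdkn1a set them apart and bounds their Cdkn1a range. A further 72 livers, of younger mice aged 157 to 386 days, took no part in the ranking.

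Cdkn1a encodes p21, an inhibitor of cyclin-dependent kinases that halts the cell cycle. Its transcription is switched on by the tumour suppressor p53 after DNA damage, and also by p53-independent routes such as stress, growth factor and circadian transcription factors. In aged tissue p21 is widely used as a marker of senescent cells, and in hepatocytes it restrains entry into the cycle after injury. Background of this kind says nothing about which route was active in these livers.

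Cdkn1a lies on chromosome 17 at 29090979 to 29099527 on the plus strand (GRCm38), from the start to the end of the transcript used. Its level is given in FPKM, read fragments scaled to transcript length and to the library's mapped total. It ran from 1.57 to 5.30 FPKM in the low group (median 4.33), from 5.45 to 20.3 in the middle livers (median 9.72) and from 24.3 to 135.6 in the high group (median 36.7). The ratio of the high to the low median was 8.50. The highest low liver at 5.30 FPKM sat next to a middle liver at 5.45, while 20.3 and 24.3 FPKM bounded the upper edge, so the lower edge of the grouping ran through a dense part of the ranking. The lowest level, 1.57 FPKM, rested on about 31 reads. Ranking by the sum of the 3 deposited Cdkn1a transcripts would have kept 15 of 15 high and 14 of 15 low livers.

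**Figure D1:**
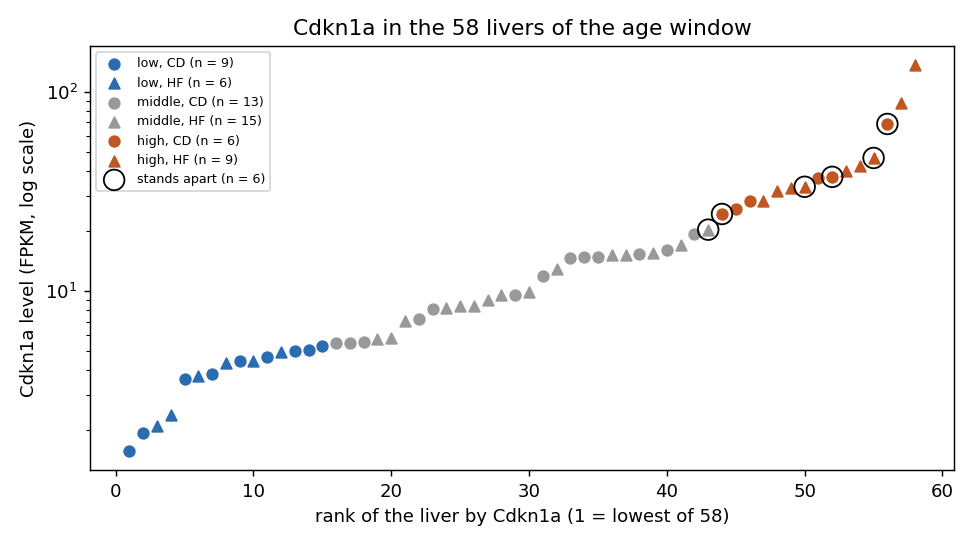
Cdkn1a level of the 58 livers of the age window (vertical axis, FPKM, log scale) against its rank (horizontal axis), circles for CD and triangles for HF livers, coloured by group. Ringed livers have an unusually low median correlation with the other livers: 5 lie in the high group, spread from rank 44 to rank 56, 1 is a middle liver and none is in the low group.

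Because p53 is the best-known activator of Cdkn1a, the RefSeq sequence just before an annotated transcription start of Cdkn1a is shown. The same is shown for 4 other known p53 targets that passed the test in these livers (GRCm38.p6, 250 bases ending at the base before the annotated start, 5′ to 3′ on the gene's strand). Capitals mark each match to the 10-base p53 half-site consensus, searched on both strands. A match is a run of letters and not evidence of binding.
Cdkn1a: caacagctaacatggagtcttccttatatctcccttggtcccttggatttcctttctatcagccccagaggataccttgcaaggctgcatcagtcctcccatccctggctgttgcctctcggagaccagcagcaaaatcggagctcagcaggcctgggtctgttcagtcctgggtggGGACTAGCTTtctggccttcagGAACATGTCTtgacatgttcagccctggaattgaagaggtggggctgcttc
Mdm2: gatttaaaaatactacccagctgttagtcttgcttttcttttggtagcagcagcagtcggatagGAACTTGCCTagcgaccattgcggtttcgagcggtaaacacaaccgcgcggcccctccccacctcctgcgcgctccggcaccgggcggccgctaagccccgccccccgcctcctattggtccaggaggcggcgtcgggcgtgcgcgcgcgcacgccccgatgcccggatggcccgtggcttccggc
Ccng1: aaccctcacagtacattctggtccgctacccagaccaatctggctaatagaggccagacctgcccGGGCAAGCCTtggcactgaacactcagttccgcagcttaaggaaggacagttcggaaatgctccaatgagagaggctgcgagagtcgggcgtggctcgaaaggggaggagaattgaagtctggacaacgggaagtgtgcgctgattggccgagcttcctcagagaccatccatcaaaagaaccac
Bax: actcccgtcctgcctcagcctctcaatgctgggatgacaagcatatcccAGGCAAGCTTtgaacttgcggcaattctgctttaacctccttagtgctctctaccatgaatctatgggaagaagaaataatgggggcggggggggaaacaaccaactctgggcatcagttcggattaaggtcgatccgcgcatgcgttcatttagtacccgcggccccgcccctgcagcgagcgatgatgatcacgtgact
Aen: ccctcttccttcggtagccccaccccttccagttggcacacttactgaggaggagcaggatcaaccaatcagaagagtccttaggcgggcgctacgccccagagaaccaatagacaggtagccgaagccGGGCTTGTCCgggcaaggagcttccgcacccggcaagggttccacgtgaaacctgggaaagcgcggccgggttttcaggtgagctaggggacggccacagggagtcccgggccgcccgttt
These stretches are chr17:29090729-29090978 on the plus strand for Cdkn1a, chr10:117710759-117711008 on the minus strand for Mdm2, chr11:40755287-40755536 on the minus strand for Ccng1, chr7:45466899-45467148 on the minus strand for Bax, and chr7:78895808-78896057 on the plus strand for Aen. The Cdkn1a stretch ends where the transcript used for the ranking begins. It holds 2 half-site matches, which start 73 and 51 bases before the start of that transcript. The other Cdkn1a promoter entry, chr17:29093519-29093768 on the plus strand, held 0 matches. Mdm2, Ccng1, Bax and Aen each held 1. Of the 28 p53 target genes listed for this work, 20 had a promoter entry and 8 of those had a match in at least 1 entry. By entry, 8 of their 27 (29.6%) had a match in the same 250 bases, against 7.13% of all 32851 promoter entries. The 5 sequences were picked for display because they hold a match, so their matches say nothing about how common it is.

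Sequencing depth and alignment were alike in the groups. The 30 libraries had 19882032 to 28891175 input reads, and 1 FPKM on a transcript of 1 kb corresponded to 18.5 to 27.4 reads. Input reads, unique and multiple mapping rates, mismatch rate and the slope of level on transcript length gave permutation p-values of 0.561 or more between the groups. The sixth measure compared, each library's median correlation with the other libraries of the age window, was 0.933 ± 0.038 (SD, n = 15) in the high and 0.963 ± 0.00608 (SD, n = 15) in the low group (2-sided permutation p = 0.00058, Benjamini-Hochberg adjusted over the 6 measures 0.00348). Mean age was 549.8 ± 29.1 days in the high and 528.6 ± 36.4 days in the low group (SD, n = 15 each, 2-sided permutation p = 0.0889), and the share of HF livers differed with an odds ratio of 2.25 (Fisher's exact test, 2-sided p = 0.466). Of the 15 high livers 4, from BXD9 (2 livers), BXD68 and BXD62, carry case numbers of 1 series that holds no low liver.

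In the high group 5 livers stood apart from the other livers of the age window, with a median correlation below 0.922, the first quartile less 3 interquartile ranges. They are BXD60 CD, BXD9 CD, B6D2F1 CD, BXD95 HF and BXD62 HF, and values without them are given beside most results below. Transcripts of other cell types were high in several of them. The summed level of 14 neutrophil markers was 18.4 to 7582 FPKM in these 5, 11.8 to 352.3 in the other high livers and 4.85 to 119.2 in the low group. The 7582 FPKM was BXD9 CD alone, and BXD62 HF, BXD95 HF, BXD60 CD and B6D2F1 CD had 18.4, 73.5, 198.5 and 293.7. The sum of 12 B and plasma cell markers was 742.2 FPKM in BXD95 HF, against 8.04 to 50.6 in the other 10 high livers and 6.04 to 37.9 in the low group. The sum of 14 cholangiocyte and progenitor markers was 101.5 to 510.9 FPKM in the 5 and 22.0 to 56.6 in the low group, so these 5 did not overlap with the low livers, against 27.1 to 69.8 in the other 10 high livers. The middle livers BXD87 CD and C57BL/6J HF, which do not stand apart, had 252.1 and 104.0 FPKM. The middle liver DBA/2J HF, which does, had 45.0 FPKM, so this level was not particular to livers that stand apart. The 13 fetal liver and tumour markers behaved alike in part, with 103.6 to 539.9 FPKM in the 5, 12.2 to 105.6 in the other 10 and 6.93 to 143.8 in the low group. Kupffer cell and macrophage markers summed to 1166 to 10520 FPKM in the 5, 330.2 to 1932 in the other 10 and 191.5 to 1621 in the low group. Hepatocyte markers (17 of 18 in the table) overlapped, at 32370 to 66250, 48720 to 69240 and 39380 to 71660 FPKM, so the samples are liver by their defining transcripts, although the BXD62 HF and BXD60 CD livers lay below every low liver. Albumin makes up a large part of this sum. Gene by gene, 0 of 17 hepatocyte markers passed the test described below, with 16 of 17 differences below 0 (median -0.23) over all 30 livers and 7 of 17 below 0 (median 0.03) without the 5. No marker of these lists was at 0 in all 58 livers. In bulk tissue more cells of a type and more RNA per cell cannot be told apart.

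**Figure D2:**
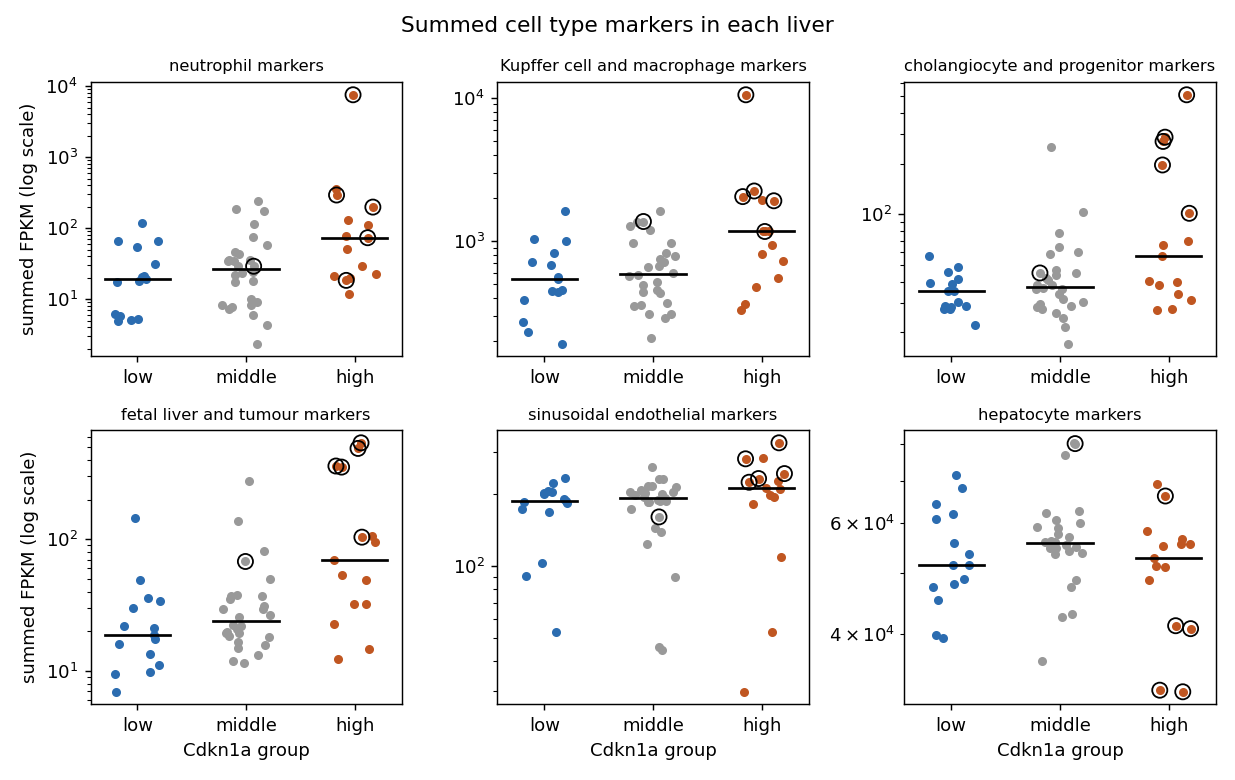
Summed FPKM of 6 cell type marker lists in each liver (vertical axes, log scale) by Cdkn1a group (low n = 15, middle n = 28, high n = 15), bars at the medians and rings on the livers that stand apart. The ringed high livers, at 101.5 to 510.9 FPKM, lie above the low livers for cholangiocyte and progenitor markers, while hepatocyte marker sums overlap between the groups.

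Across all 30 livers, 435 genes were higher (3.19% of those tested) and 578 lower (4.24%) in livers with high Cdkn1a at an adjusted p under 0.05, 1013 in all (7.43%), by limma on log2(FPKM + 1) with diet as a covariate and Benjamini-Hochberg adjustment over all genes. Below, "rose" and "fell" are used for genes that passed this test, in the high relative to the low group. By at least 1 on the log2 scale, 67 genes rose and 57 fell, and the median difference of all genes was 0.08. Over all 13630 genes 8541 differences were above 0 and 5089 below, and without the 5 livers that stand apart 7777 and 5853. Without the 5 livers that stand apart, 13 genes rose (0.0954%) and 30 fell (0.22%), of which 38 were among the 1013. With each liver left out in turn, between 392 and 2388 genes passed, and 338 genes passed in every one of these fits. The count fell to 392 without BXD60 CD, to 392 without BXD9 CD and to 626 without BXD95 HF. It also fell when a low liver was left out, to 507 without D2B6F1 HF, 556 without BXD73b HF, 591 without BXD61 CD, 621 without D2B6F1 CD and 663 without BXD73b CD. It rose to 1756 without BXD32 HF, 1877 without BXD90 CD, 1967 without the BXD29 CD liver of 574 days and 2388 without the BXD29 HF liver of 630 days. The balance of directions also moved, with 1302 higher and 906 lower for 20 against 20 livers, 1519 and 832 when ranked within each diet, 794 and 683 with strain as a random effect, and 2199 (16.1%) and 1350 (9.9%) for the slope on Cdkn1a over all 58 livers. The number of genes that passed and the balance of directions therefore depended on which livers were included and how Cdkn1a and strain entered the fit.

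Known p53 targets were higher as a group in the livers with high Cdkn1a. Of 26 tested, 11 rose and 0 fell, with a median difference of 0.35 against 0.08 over all genes. Of the 26 differences 23 were above 0, against 8541 of 13630 over all genes. Without the 5 livers that stand apart the median was 0.18 against 0.03 over all genes. Only 2 of the 26 then passed, Sesn2 and Gdf15, both described below. Phlda3, which restrains Akt signalling, ran from 0.755 to 3.03 FPKM in the low group (median 2.30) and from 2.12 to 59.0 in the high group (median 7.02). Of the 15 high livers 14 lay above every low liver, and the difference was 1.46 ± 0.29 on the log2 scale (SE, adjusted p = 0.00608; 1.25, adjusted p = 0.095 without the 5 livers). Btg2, an antiproliferative immediate early gene, ran from 3.29 to 10.5 FPKM (median 6.10) in the low and 7.33 to 52.8 (median 21.7) in the high group. In the high group 11 livers exceeded the low range, and the difference was 1.52 ± 0.27 (adjusted p = 0.00381; 1.09, adjusted p = 0.0931 without the 5). Bax, the pro-apoptotic pore former, had 12.6 to 39.8 FPKM in the low and 29.8 to 88.6 in the high group and differed by 0.83 ± 0.18 (adjusted p = 0.00853; 0.54, adjusted p = 0.204 without the 5).

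The feedback regulator Mdm2, the ubiquitin ligase that degrades p53, rose as well. Its level was 4.62 to 7.90 FPKM (median 6.00) in the low and 5.30 to 17.1 (median 8.81) in the high group, a difference of 0.44 ± 0.12 (adjusted p = 0.0282; 0.30, adjusted p = 0.304 without the 5), with 11 high livers above the low range. Cyclin G1 (Ccng1) rose by 0.47 ± 0.14 (adjusted p = 0.0458; 0.44, adjusted p = 0.304 without the 5), and the apoptosis nuclease Aen by 0.66 ± 0.14 (adjusted p = 0.00796; 0.65, adjusted p = 0.0691 without the 5). Sesn2 and Gdf15 passed with and without the 5 livers. Sesn2, a stress-induced inhibitor of mTORC1, rose by 0.64 ± 0.12 (adjusted p = 0.00384; 0.62, adjusted p = 0.0341), and Gdf15, a secreted stress hormone that lowers appetite, by 1.05 ± 0.25 (adjusted p = 0.0149; 1.23, adjusted p = 0.0341). Both also belong to the integrated stress response list. Zmat3, an RNA-binding p53 target, had 0.488 to 1.07 FPKM in the low and 0.698 to 3.55 in the high group and did not pass (0.41 ± 0.13, adjusted p = 0.0505), nor did Trp53, which encodes p53 (0.44 ± 0.16, adjusted p = 0.0692).

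The p53 targets were not equally high in every high liver. BXD9 HF (88.0 FPKM of Cdkn1a) had 59.0 FPKM of Phlda3, 3.55 of Zmat3, 27.9 of Ccng1 and 51.9 of Gdf15, the highest values of all 58 livers for these genes. The BXD29 CD liver of 572 days, with 25.6 FPKM of Cdkn1a, had 2.12 FPKM of Phlda3, 0.712 of Zmat3 and 7.60 of Ccng1, all within the range of the low group. BXD90 CD, with 36.7 FPKM of Cdkn1a, likewise had 0.698 FPKM of Zmat3 and 6.48 of Ccng1.

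Transcripts of cholesterol synthesis and uptake were lower in the livers with high Cdkn1a. This pathway makes cholesterol from acetyl-CoA or takes it up from the blood, and the transcription factor SREBP2 switches its genes on when sterols in the cell run low. Of 24 genes tested 17 fell and 0 rose, all 24 differences were below 0, and the median was -0.94. Insig1, the sterol-regulated anchor of SREBP, had 55.9 to 422.1 FPKM (median 166.0) in the low and 20.6 to 151.5 (median 54.2) in the high group. Every high liver lay below the low median, and the difference was -1.35 ± 0.26 (adjusted p = 0.00532; -1.13, adjusted p = 0.0691 without the 5 livers). Fdft1, the squalene synthase, had 31.4 to 83.4 FPKM (median 54.9) in the low and 14.6 to 66.2 (median 27.7) in the high group, with 10 high livers below the low range. It fell by 0.93 ± 0.18 (adjusted p = 0.00558) and, on its values without the 5, had a difference of -0.79 (adjusted p = 0.0466). Without the 5 livers the list's median was -0.71 and 2 of its genes, Fdft1 among them, passed.

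De novo lipogenesis, which builds fatty acids and triglycerides from carbohydrate under insulin and the transcription factor SREBP1c, was lower as well. Of 18 genes tested 8 fell and 0 rose, with a median of -0.69, and -0.39 without the 5 livers, when none passed. Thrsp, an insulin- and carbohydrate-responsive lipogenic protein, had 28.6 to 317.6 FPKM (median 96.6) in the low and 3.96 to 148.1 (median 39.2) in the high group (-1.89 ± 0.47, adjusted p = 0.0176; -1.77, adjusted p = 0.0691 without the 5). In the high group 6 livers lay below the low range and the others overlapped with it. Dgat2, the last step of triglyceride synthesis, had a difference of -0.75 ± 0.15 (adjusted p = 0.00562), the desaturase Fads1 -0.62 ± 0.14 (adjusted p = 0.012) and the acetyl-CoA synthetase Acss2 -1.12 ± 0.27 (adjusted p = 0.0149). The same genes had -0.46, -0.35 and -0.85 without the 5 livers (adjusted p = 0.0942, 0.185 and 0.223). Srebf1, which encodes SREBP1, had -0.84 ± 0.23 (adjusted p = 0.0292; -0.81, adjusted p = 0.173 without the 5). The desaturase Scd1, at a median of 600.0 FPKM in the low and 216.4 in the high group, did not pass (-1.28 ± 0.43, adjusted p = 0.0584), nor did the fatty acid synthase Fasn (-0.94 ± 0.36, adjusted p = 0.0784).

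**Figure D3:**
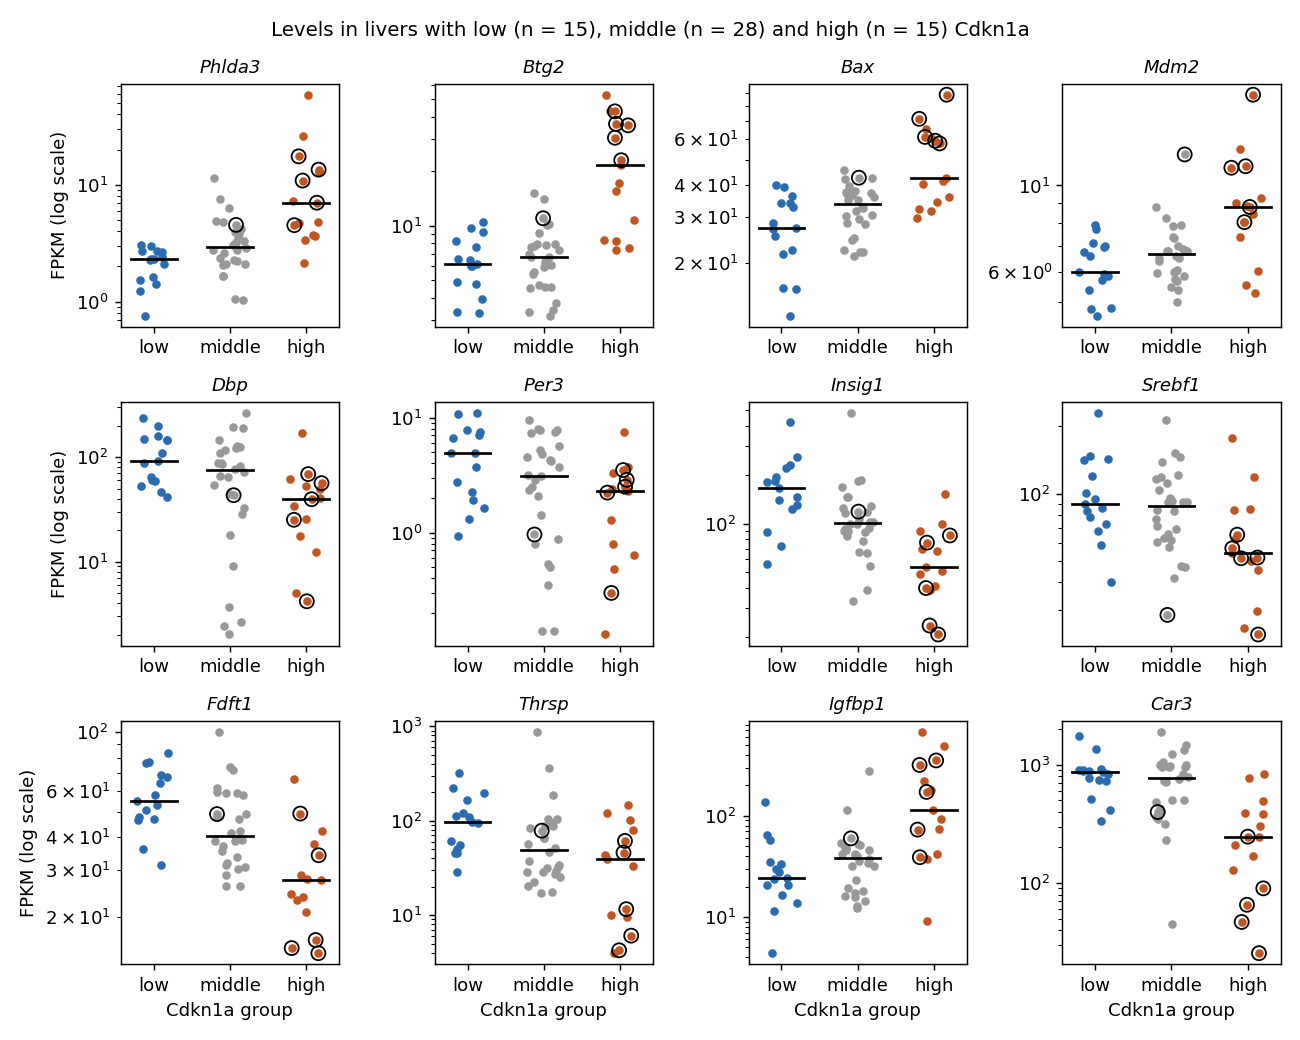
Level of 12 genes in each liver (vertical axes, FPKM, log scale) by Cdkn1a group (low n = 15, middle n = 28, high n = 15), bars at the medians and rings on the livers that stand apart. Phlda3, Btg2, Bax, Mdm2 and Igfbp1 are higher and the other 7 genes lower in the high group, and 14 high livers lie above every low liver for Phlda3.

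Circadian clock genes differed between the groups. The liver clock runs on a loop in which BMAL1 (Arntl) and CLOCK drive the Per, Cry and Rev-erb repressors and output factors such as Dbp and Tef. These transcripts swing over the day, with Arntl in opposite phase to Dbp. Of 18 clock genes tested 6 fell and 0 rose, with a median of -0.51. Of these 1, Dbp, passed without the 5 livers, when the median was -0.38. Dbp, an output factor with one of the widest daily swings, had 41.5 to 236.9 FPKM (median 92.2) in the low and 4.17 to 168.2 (median 39.5) in the high group, with 9 high livers below the low range. The difference was -1.82 ± 0.35 (adjusted p = 0.00509; -1.87, adjusted p = 0.0322 without the 5 livers). The period gene Per3 fell by 1.01 ± 0.27 (adjusted p = 0.0269), the output factor Tef by 0.88 ± 0.24 (adjusted p = 0.0269) and the Rev-erb repressor Nr1d2 by 0.66 ± 0.17 (adjusted p = 0.021). The output factor Hlf had -0.67 ± 0.18 (adjusted p = 0.0253). Without the 5 livers none of these 4 passed, at -1.17 for Per3 (adjusted p = 0.0979), -0.86 for Tef (adjusted p = 0.143), -0.60 for Nr1d2 (adjusted p = 0.153) and -0.33 for Hlf (adjusted p = 0.506). Arntl had a median of 1.28 FPKM in the low and 2.74 in the high group without passing (0.75 ± 0.26, adjusted p = 0.0659). Per the labels' protocols tissue collection began in the morning, and the hour at which each mouse was taken is not given in the sources used here, so its part in this result was not tested.

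Several hepatocyte functions were lower when all 30 livers were included. Of 28 genes on the xenobiotic cytochrome P450 list 12 fell and 0 rose (median -0.89), of 18 bile acid genes 7 fell and 0 rose (median -0.53), and of 25 amino acid and urea cycle genes 7 fell and 0 rose (median -0.28). Without the 5 livers that stand apart no gene of these 3 lists passed, and the medians were -0.36, -0.14 and 0.01. Cyp2c29, a drug-metabolising P450, had 197.7 to 861.1 FPKM in the low and 43.6 to 442.5 in the high group (-1.23 ± 0.27, adjusted p = 0.0105; -0.59, adjusted p = 0.156 without the 5). Cyp7a1, the rate-limiting enzyme of bile acid synthesis, had 11.0 to 103.3 FPKM (median 48.5) in the low and 2.69 to 38.1 (median 16.6) in the high group, and every high liver lay below the low median. It fell by 1.40 ± 0.34 (adjusted p = 0.0176), against -1.15 and adjusted p = 0.179 without the 5. Akr1d1, the bile acid reductase, had -0.84 ± 0.16 (adjusted p = 0.00384; -0.62, adjusted p = 0.0794 without the 5), and the bile acid importer Slc10a1 -0.82 ± 0.21 (adjusted p = 0.0217; -0.30, adjusted p = 0.333). In amino acid metabolism Gnmt, the glycine methyltransferase, had -0.75 ± 0.17 (adjusted p = 0.0115), the urea cycle enzyme Otc -0.66 ± 0.16 (adjusted p = 0.0145) and the tyrosine-degrading Hpd -0.76 ± 0.18 (adjusted p = 0.0154). Without the 5 these were -0.50, -0.36 and -0.30 (adjusted p = 0.173, 0.157 and 0.155). Albumin (Alb) had a median of 28260 FPKM in the low and 31770 in the high group and a difference of -0.02 ± 0.14 (adjusted p = 0.93).

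**Figure D4:**
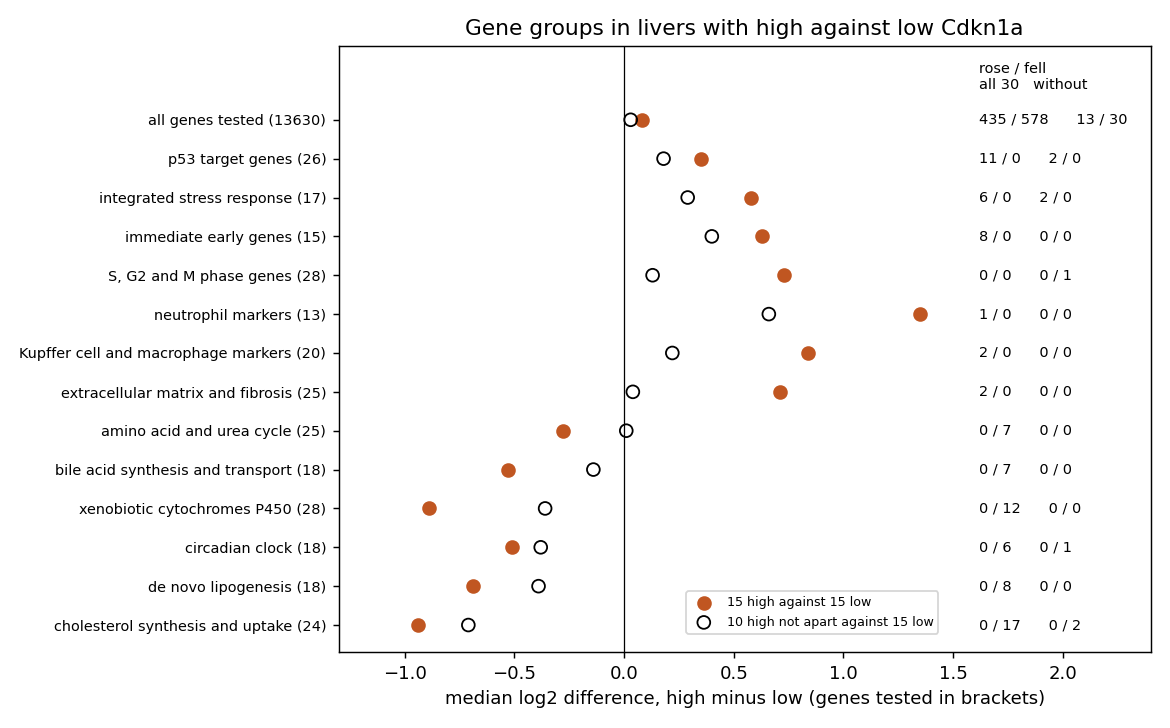
Median log2 difference, high minus low (horizontal axis), of 13 gene groups and of all genes tested, filled for all 30 livers and open for the 25 that remain without the 5 high livers that stand apart, with the genes that rose and fell in each. Cholesterol genes keep a median of -0.71 without these livers, while extracellular matrix genes go from 0.71 to 0.04 and amino acid genes from -0.28 to 0.01.

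The 12 largest rises included Igfbp1, a secreted binding protein for IGFs that insulin represses. Igfbp1 had 4.38 to 137.3 FPKM (median 24.4) in the low and 9.12 to 673.3 (median 114.3) in the high group, with 14 of 15 high livers above the low median. Its difference of 2.28 ± 0.48 (adjusted p = 0.008) was 2.29 without the 5 livers, where the adjusted p was 0.0599. Cxcl14, an epithelial chemokine, had a difference of 1.83 ± 0.43 (adjusted p = 0.0149), the hypoxia- and stress-induced mTORC1 inhibitor Ddit4 1.54 ± 0.46 (adjusted p = 0.0395), and the glycolytic kinase Pkm 1.56 ± 0.47 (adjusted p = 0.0422). None of Cxcl14, Ddit4 and Pkm passed without the 5 livers, at 0.97, 0.81 and 0.48 (adjusted p = 0.304, 0.587 and 0.703). Btg2 is described with the p53 targets. Another 6, Marco, Cd14, Slfn2, Wfdc17, Itgam and Ncf1, are known from macrophages and other leukocytes and differed by 1.46 to 1.90, and by 0.45 to 1.14 without the 5 livers, with adjusted p-values from 0.325 to 0.659 there. Their part in cell content was not tested beyond the marker sums given above.

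The 12 largest falls were mostly hepatocyte enzymes. Hamp2, a hepcidin gene, had 12.1 to 15360 FPKM (median 1813) in the low and 12.0 to 175.9 (median 59.8) in the high group (-3.76 ± 0.87, adjusted p = 0.0131; -3.30, adjusted p = 0.179 without the 5). Its near copy Hamp, the hepcidin that controls iron uptake, overlapped between the groups, with 3.81 to 3776 and 4.01 to 3045 FPKM (-0.83 ± 0.93, adjusted p = 0.566). Car3, a carbonic anhydrase abundant in hepatocytes, had 335.7 to 1745 FPKM (median 877.5) in the low and 25.5 to 838.4 (median 247.1) in the high group, where every liver lay below the low median. Its difference was -2.12 ± 0.38 (adjusted p = 0.00381; -1.38, adjusted p = 0.0341 without the 5). Inmt, an indolethylamine methyltransferase, had 227.7 to 766.7 FPKM in the low and 18.5 to 449.5 in the high group, with 12 high livers below the low range (-1.69 ± 0.34, adjusted p = 0.00608; -1.23, adjusted p = 0.0322 without the 5). The sulfotransferases Sult2a3 and Sult2a2 had -2.81 ± 0.59 and -1.79 ± 0.48, A1bg -2.43 ± 0.76, the P450 genes Cyp3a16 and Cyp2a5 -1.97 ± 0.61 and -1.71 ± 0.47, the carboxylesterase Ces1f -1.77 ± 0.38 and the hydroxyacid oxidase Hao2 -1.71 ± 0.33, with adjusted p-values from 0.00558 to 0.0464. None of these 7 passed without the 5 livers. There Sult2a3 and Sult2a2 had -2.01 and -1.51, A1bg -1.94, Cyp3a16 and Cyp2a5 -1.40 and -1.51, Ces1f -0.98 and Hao2 -0.95, with adjusted p-values from 0.0509 to 0.478. Dbp and Thrsp, described above, complete the 12. Hamp2, Sult2a2, Sult2a3, Cyp3a16, Cyp2a5 and Ces1f have near-identical relatives among which reads can be shared, so their single-gene values are uncertain.

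Stress-responsive and immediate early genes were among those that rose over all 30 livers. In the integrated stress response, which ATF4 drives when amino acids or protein folding fail, 6 of 17 genes rose and 0 fell (median 0.58, and 0.29 without the 5 livers, with Sesn2 and Gdf15 passing). Besides these and Ddit4 they included the serine synthesis gene Psat1 (1.17 ± 0.35, adjusted p = 0.0393; 0.29, adjusted p = 0.466 without the 5) and asparagine synthetase Asns (1.12 ± 0.33, adjusted p = 0.0394; 0.19, adjusted p = 0.687). Fgf21, a fasting and stress hormone of the liver, had 0.530 to 13.8 FPKM in the low and 0.307 to 46.4 in the high group and did not pass (0.58 ± 0.42, adjusted p = 0.351). Of 15 immediate early genes 8 rose and 0 fell (median 0.63, and 0.40 with none passing without the 5), among them Ier5 (0.81 ± 0.21, adjusted p = 0.0222), Myc (1.14 ± 0.31, adjusted p = 0.0286) and Jun (0.98 ± 0.28, adjusted p = 0.0316). Without the 5 these 3 had 0.43 (adjusted p = 0.436), 0.43 (adjusted p = 0.496) and 0.91 (adjusted p = 0.276). Gadd45b, a stress-inducible signalling adaptor, rose by 1.06 ± 0.23 (adjusted p = 0.00898; 1.09, adjusted p = 0.0761 without the 5), while its relative Gadd45a had -0.18 ± 0.20 (adjusted p = 0.554). Of 17 growth hormone and IGF genes 3 fell (Igfals, Ghr and Cux2) and Igfbp1 rose. Igfals, the acid-labile subunit that keeps IGF1 in the circulation, had -0.95 ± 0.17 (adjusted p = 0.00381; -0.59, adjusted p = 0.0385 without the 5), and Ghr, the growth hormone receptor, -0.79 ± 0.19 (adjusted p = 0.0161; -0.37, adjusted p = 0.217).

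No S, G2 or M phase gene passed the test between the groups. None of the 28 rose or fell, with a median of 0.73 over all 30 livers and 0.13 without the 5 (26 and 23 differences above 0). In the slope on Cdkn1a over all 58 livers, which include these 30, 23 of the 28 passed above 0 and 1 below. In the fit without the 5 livers 1 of them, the thymidine kinase Tk1, was lower (-0.83, adjusted p = 0.0322, against -0.49 and adjusted p = 0.0886 over all 30). Top2a, a topoisomerase of dividing cells, had 0.0306 to 1.12 FPKM (median 0.306) in the low and 0.0683 to 23.6 (median 0.810) in the high group (1.02 ± 0.37, adjusted p = 0.0699; 0.21, adjusted p = 0.731 without the 5). The 2 highest values, 23.6 FPKM in BXD95 HF and 19.4 in BXD9 CD, were in livers that stand apart. Mki67, another proliferation marker, had 0.84 ± 0.33 (adjusted p = 0.0905). Among other CDK inhibitors, Cdkn1b (p27) rose by 0.33 ± 0.10 (adjusted p = 0.0364; 0.22, adjusted p = 0.451 without the 5) and Cdkn1c (p57) had -0.43 ± 0.13 (adjusted p = 0.0371; -0.34, adjusted p = 0.36). Cdkn2a, the p16 and p19 locus used as a senescence marker, had 0.436 to 4.01 FPKM in the low and 0.0450 to 45.6 in the high group and did not pass (0.92 ± 0.33, adjusted p = 0.0706), and cyclin D1 (Ccnd1) had 0.48 ± 0.31 (adjusted p = 0.304). Of 22 secreted factors associated with senescence 4 rose, among them Gdf15, Pdgfa and Plaur, and 1, Gdf15, passed without the 5 livers.

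Few leukocyte, matrix and acute phase genes passed between the groups, although the medians of the leukocyte and matrix lists were well above that of all genes. Neutrophil markers had a median of 1.35 with 1 of 13 rising (the protease Mmp9), Kupffer cell and macrophage markers 0.84 with 2 of 20 (Marco and Cd9), extracellular matrix genes 0.71 with 2 of 25 (Vim and Mmp14), and no gene of these lists fell. Without the 5 livers the medians were 0.66, 0.22 and 0.04, and no gene passed. Of 26 acute phase genes 1 rose and 0 fell (median 0.34; 0.11 with none passing without the 5). More passed in the slope over all 58 livers, with 13 of 13 neutrophil, 15 of 20 Kupffer cell and macrophage, 17 of 25 matrix and 9 of 26 acute phase genes above 0 and none below. The acute phase genes Saa1 and Lcn2 spanned 66.1 to 980.6 and 18.4 to 282.1 FPKM in the low group, against 17.8 to 9708 and 10.8 to 4499 in the high group. Neither passed (Saa1 0.66 ± 0.71, adjusted p = 0.55; Lcn2 1.5 ± 0.69, adjusted p = 0.137), and for Saa1 the difference was -0.03 without the 5 livers. The urinary protein gene Mup20 did not pass either (0.61 ± 0.51, adjusted p = 0.423). Of 33 interferon-stimulated genes 3 rose (Mx1, Oas1a and Dhx58; median 0.26, and 0.23 with none passing without the 5). Further, 0 of 31 nuclear genes of oxidative phosphorylation passed, although all 31 differences were below 0 (median -0.25).

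By label, the 1 strain in both groups gave a comparison on a shared background and diet. The values of the low BXD62 liver are repeated in a left-out column that is labelled as another strain. Which label is right was not tested, so the shared background is uncertain. The low BXD62 HF liver was taken at 488 days and the high one, which stands apart, at 548 days. From the low to the high liver, Igfbp1 went from 4.38 to 353.0 FPKM, Phlda3 from 2.99 to 13.5, Btg2 from 6.46 to 30.5 and Gdf15 from 8.43 to 29.2. In the same order Thrsp went from 120.8 to 4.24 FPKM, Car3 from 901.4 to 90.2, Inmt from 495.9 to 45.5 and Dbp from 146.8 to 56.3. Serpina6, the corticosteroid-binding globulin, had 347.2 and 320.6 FPKM. Some genes went against the group difference: Cyp2a5 and Nr1d2, which fell between the groups, went from 900.3 to 1190 and from 12.1 to 15.4 FPKM, and Wfdc17, which rose, from 26.1 to 23.9. Of the 435 genes that rose, 427 were higher in the high BXD62 liver. Of the 578 that fell, 534 were lower there. Both livers had entered the comparison that gave these calls, so this agreement was partly fixed in advance. The share over all genes tested is not given here. With 1 liver each there is no replicate check of these differences.

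No difference between the diets in the group effect was detected. No gene passed the test of a diet by group interaction (limma, 326 genes at an unadjusted p under 0.05). Fitted in CD livers alone (6 high, 9 low) 176 genes passed, and in HF livers alone (9 high, 6 low) 0 passed, with 901 at an unadjusted p under 0.05. Of the livers that stand apart, BXD60, BXD9 and B6D2F1 were among the 6 high CD livers, and BXD95 and BXD62 among the 9 high HF livers. The 2 fits therefore also differ in their share of such livers. The cholesterol list had a median of -1.44 in CD and -0.45 in HF livers, with all 24 differences below 0 in both. The p53 list had medians of 0.25 and 0.41. Both groups were present on 2 flow cells, one with 9 high and 6 low livers and the other with 6 and 4. Within them 0 genes passed in either, with 1755 and 2368 at an unadjusted p under 0.05. Their list medians were -0.84 and -0.68 for cholesterol, 0.36 and 0.26 for p53 targets, and -0.44 and -0.69 for clock genes. The remaining low livers, 4 and 1, were on 2 other flow cells that held no high liver. With flow cell as a factor over the 30 livers, 707 genes passed.

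In the 72 younger livers, which the grouping did not use, the slope of each gene on log2(Cdkn1a + 1) was fitted with diet and age as covariates. Cdkn1a ran from 0.507 to 56.6 FPKM there (median 4.47). Genes with a slope above 0 that passed numbered 800 (5.87%), and those below 0 numbered 553 (4.06%). Of the 1013 genes that passed between the groups, 326 passed here too (32.2% of the 1013 and 24.1% of the 1353), 90 upward and 236 downward, and all 326 in the same direction. Of the 1013, 930 (91.8%) had the same sign in the younger livers, against 66.2% of all genes tested. Of the 43 genes that passed without the 5 livers, 32 passed in the younger livers.

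Clock, lipogenic and cholesterol genes were among those with large slopes. Dbp had a slope of -1.05 ± 0.13 (adjusted p = 2.83e-08), and its median was 181.7 FPKM in the 18 younger livers with the lowest Cdkn1a against 20.1 in the 18 with the highest. Per3 had -0.56 (adjusted p = 4.02e-08) and Tef -0.45 (adjusted p = 1.22e-06). Of 18 clock genes 9 had a slope below 0 that passed and 5 had one above 0. The 5 were Arntl (0.54, adjusted p = 3.84e-07), Npas2 (0.23, adjusted p = 0.000123), Clock (0.23, adjusted p = 5.18e-06), Nfil3 (0.27, adjusted p = 0.00317) and Cry1 (0.16, adjusted p = 0.0295). Arntl, Npas2 and Clock encode the positive arm of the loop, and Arntl is known to run in opposite phase to Dbp. Thrsp had -0.85 ± 0.14 (adjusted p = 7.01e-06), with medians of 357.2 and 32.8 FPKM in the lowest and highest 18. Of 18 lipogenic genes 14 passed with a slope below 0 and none above. Of the cholesterol genes 13 of 24 passed below 0 and none above. Serpina6, with medians of 514.6 and 160.1 FPKM in the lowest and highest 18, had a slope of -0.53 (adjusted p = 1.79e-08), and a group difference of -1.18 in the older livers (adjusted p = 0.00608; -1.16, adjusted p = 0.0322 without the 5).

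**Figure D5:**
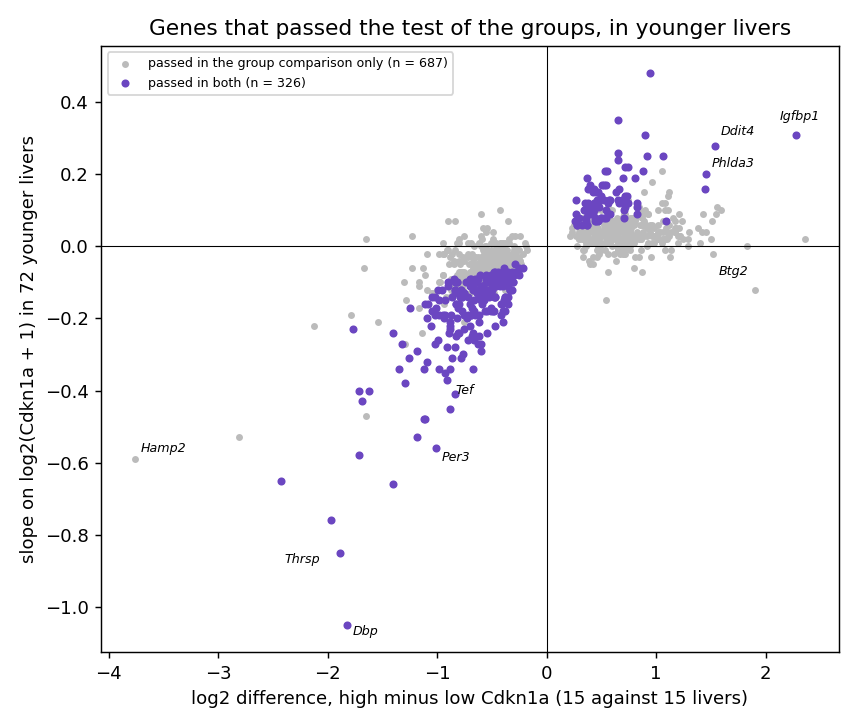
Log2 difference between 15 high and 15 low livers (horizontal axis) and slope on log2(Cdkn1a + 1) in 72 younger livers (vertical axis) for the 1013 genes that passed between the groups, the 326 that passed in both in purple. All 326 lie in the lower left or upper right, with Dbp at -1.82 and -1.05 and Igfbp1 at 2.28 and 0.31, while Btg2 at 1.52 has a slope of -0.02.

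Some p53 targets also followed Cdkn1a in the younger livers. Of 26, 7 passed above 0 and 1 (Plk3) below, with a median slope of 0.03 against 0.01 over all genes. Phlda3 (0.20, adjusted p = 0.00184), Aen (0.16, adjusted p = 0.000154), Bax (0.12, adjusted p = 0.00174) and Mdm2 (0.07, adjusted p = 0.0496) were among the 7. Btg2 had a slope of -0.02 ± 0.06 (adjusted p = 0.896), and Ccng1 0.07 (adjusted p = 0.132). The P450 list had 4 of 28 genes passing below 0 (Cyp2a4, Cyp2a5, Cyp3a16 and Por), and neutrophil and Kupffer cell markers 0 of 33. A difference between the age groups in these slopes was not tested.

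In the 28 middle livers, where Cdkn1a spanned 5.45 to 20.3 FPKM, 0 genes passed the same slope test (limma with diet as covariate, 1095 at an unadjusted p under 0.05). Of the 1013 genes 930 (91.8%) had the sign of the group difference there, against 65.6% of all genes. All 24 cholesterol genes had a slope below 0 (median -0.20). Dbp had -1.21 (unadjusted p = 0.0334) and Cyp2a5 -0.81 (unadjusted p = 8.4e-05), neither past the adjusted threshold.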

How the data were processed

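Female BXD liver libraries were poly(A)-selected and sequenced as paired reads, per the labels' protocols, and aligned with STAR 2.6.0c, per the submitters' processing notes. FPKM values per transcript (43320 rows, GRCm38) were used as the authors deposited them. The quantification tool is not given in the sources used here. A log2 table of the series was not used. Of 150 columns, 7 that repeat another column and 3 more with Ddx3y, a Y-linked transcript, above 5 FPKM were left out, which left 140. Each gene is its row with the highest mean FPKM over the 58 livers of the age window, and genes with a mean of at least 0.5 FPKM there were tested, without Cdkn1a. FPKM is relative to each library's total, so a few very abundant transcripts can lower all others.

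Groups were fitted with limma 3.58.1 (R 4.3.3, trend and robust empirical Bayes) on log2(FPKM + 1) with diet as a covariate, and p-values were adjusted by Benjamini-Hochberg over all genes tested at 0.05. A difference on this scale understates the change of genes near or below 1 FPKM. Slopes on log2(Cdkn1a + 1) used the same test. Age was compared with 100000 permutations. The tests were tried on simulated data with known changes. Each library is 1 mouse by label, but mice of 1 strain share a genotype. The BXD34 middle livers, 1 HF and 1 CD by label, had close values. They had 87.2 and 85.9 FPKM of Dbp, 92.9 and 89.4 of Insig1, and neutrophil marker sums of 184.9 and 175.3 FPKM. Whether they come from 1 mouse was not tested, and both entered the fits of the middle livers and of all 58 livers as separate. Replicate numbers follow accession order and pair nothing.

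The members and gene lists were chosen with earlier results of these data known. Genes are named by rule: the 12 genes that rose most and the 12 that fell most, provided that they passed and averaged at least 1 FPKM in the age window (predicted genes left out), the 3 with the smallest p in each list described, and a set of markers whatever their p. Aen, Srebf1, Scd1, Fasn, Per3, Tef, Hlf, Asns, Plaur, Cux2, Tk1, Plk3, Por, Cyp2a4, Serpina6 and the clock genes of the younger livers were named after their values were seen. Some genes that the rule names are not reported here.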

Additional observations from a re-analysis of the deposited data

How the results depend on the processing

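Settings were varied one at a time. The count of 1013 genes was 593 with no filter on low values, 513 with arrayWeights (library weights), 1650 with the length slope as a covariate, 610 with a shared case-number series as a random effect, 494 for 10 against 10 livers, 2208 for 20 against 20, 3549 for the slope over all 58 livers, 2351 when ranked within each diet, 176 in CD and 0 in HF livers. Chosen after seeing the data, it was 43 without the livers that stand apart, 0 within each of 2 flow cells, 332 without the case-number series with 4 high livers, 521 without livers whose values another column repeats, and 105 without both that series and the livers that stand apart. It ranged from 392 to 2388 with 1 liver left out, and stayed within 1.5 times under the other settings run (from 707 to 1477). The interaction gave 0 genes, and 15 with arrayWeights. The younger livers' 1353 genes became 2144 with arrayWeights, and otherwise stayed within 1.5 times. The middle livers gave 0, and 106 with arrayWeights. The age difference of 21.2 days (p = 0.0889) was 26.9 days for 10 against 10 (permutation p = 0.0484) and 17.8 days for 20 against 20 (permutation p = 0.101). Genes that did not pass and changed sign were Gadd45a (0.09 in HF livers, 0.06 in the first flow cell), Ccnd1 (-0.12 without that series and the livers that stand apart), Saa1 (-0.03 without the livers that stand apart, -0.06 without the series too, -0.68 in the second flow cell), Mup20 (-0.21 for 10 against 10), Clock (-0.04 in CD livers) and Alb, whose difference of -0.02 became 0.00 to 0.09 under 11 settings: 0.05 with arrayWeights, 0.05 for 20 against 20, 0.01 for the slope over 58 livers, 0.00 with no diet term, 0.02 in CD livers, 0.09 without the livers that stand apart, 0.03 with flow cell as a factor, 0.00 and 0.09 within the flow cells, 0.02 without the series and 0.09 without both. The cause of these shifts was not tested. No paired analysis was possible because replicate numbers only follow accession order. Levels near 1 FPKM rest on few reads and are limited by depth.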

Other observations

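A few genes of other groups also differed. Of 26 glutathione and NRF2 target genes 2 fell and 0 rose in livers with high Cdkn1a: Gsta3, a glutathione transferase (a median of 1124 FPKM in the low and 562.5 in the high group, -1.11 ± 0.18, adjusted p = 0.0027 by limma; -0.85, adjusted p = 0.0322 without the 5 livers that stand apart), and Gstt1 (-0.73 ± 0.17, adjusted p = 0.0149; -0.42, adjusted p = 0.183). Sox9, a transcription factor of bile duct and progenitor cells, rose from a median of 2.08 to 3.70 FPKM (0.72 ± 0.20, adjusted p = 0.0284; 0.63, adjusted p = 0.179 without the 5), and 1 of 11 cholangiocyte and progenitor markers rose in all. Klf1, an erythroid transcription factor, fell by 0.64 ± 0.17 (adjusted p = 0.0238; -0.34, adjusted p = 0.426 without the 5), while 7 of 8 erythroid markers had a difference above 0. Of 79 cytosolic ribosomal protein genes 1 rose, Rpl13a (0.58 ± 0.17, adjusted p = 0.0413), and all 79 differences were above 0 with a median of 0.33, against 48 of 79 and a median of 0.01 without the 5 livers. Over all genes 7777 of 13630 differences were above 0 without the 5 livers.

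In the unfolded protein response 0 of 16 genes passed between the groups (median 0.08), while 7 of 16 had a slope above 0 on Cdkn1a that passed in the 72 younger livers. In the same younger livers all 13 exocrine pancreas markers had a slope above 0 (median 0.72), and 2 of them passed. Between the groups 0 of these 13 passed, with sums of 7.19 to 4674 FPKM in the low and 8.37 to 2320 in the high group. A link between pancreas transcripts and the unfolded protein response slopes was not tested. Of 27 genes of fatty acid oxidation 2 fell between the groups, the thioesterases Acot3 (-1.62 ± 0.39, adjusted p = 0.015; -0.93, adjusted p = 0.371 without the 5) and Acot4 (-0.76 ± 0.23, adjusted p = 0.0422; -0.33, adjusted p = 0.658). In the younger livers 6 of these 27 passed above 0 and 1, Acot3, below. The difference between the age groups was not tested.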
